A study of Mus musculus with 4 samples.

Results

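Metalloproteinases and their inhibitors were taken as the genes whose names begin with *Mmp* or *Adam* and a number, with *Adamts*, or with *Timp* and a number. They held 116 of the 33556 m6A peaks of the chronic constriction injury (CCI) list and 121 of the 34406 peaks of the sham list. These peaks lay in 41 of 12408 genes in CCI and in 45 of 12907 genes in sham, and 47 member genes of 13558 genes had a row in any of the 3 tables. RefSeq holds 85 symbols that match the rule, so 38 of them had no row in the tables used here. The tables hold no expression values, and nothing is said here of whether those genes were transcribed.

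The peaks came from methylated RNA immunoprecipitation sequencing (MeRIP-seq), in which fragments of poly(A) RNA are captured with an antibody against N6-methyladenosine (m6A; the IP library) and compared with uncaptured fragments of that RNA (the input library). Spinal cord was collected from C57BL/6J mice, 6 to 8 weeks old. In the CCI group the sciatic nerve was loosely ligated at 4 sites with silk, in the sham group the same operation was done without a ligature, and tissue was taken on day 7. Each group had 1 IP and 1 input library, the number of mice behind a library is not given in the sources used here, and the difference between the groups had no replicate check, so no p-value is given. The fold enrichment of a peak is the authors' ratio of IP over input, the tables hold no read counts and the depth of the libraries is unknown. Of 22 marker genes of spinal cord cells and spinal position, 21 had a peak in both lists and *Hoxc9* had no row. Of 9 markers of muscle, fibroblasts, sensory ganglia and forebrain, 1 had a peak in CCI (*Col1a1* of fibroblasts) and 2 had a peak in sham (*Col1a1* and *Scn10a* of sensory ganglia).

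Matrix metalloproteinases (MMPs) are zinc-dependent enzymes that cut extracellular matrix and surface proteins, and the membrane-type members stay anchored at the cell surface. ADAMs are transmembrane proteins, many of which release the outer part of other membrane proteins (shedding), ADAMTS enzymes are secreted and cut proteoglycans and procollagens, and the TIMP proteins block the active site of these enzymes. In the spinal cord they act on the perineuronal net, on adhesion molecules of the synapse and on cytokines, and membrane-type MMP24 (MT5-MMP) is known as a neuronal member that cuts N-cadherin. m6A is placed mostly near stop codons and in 3′-UTRs, within short motifs such as GGAC, and is known to bear on the stability and translation of an mRNA.

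A window of 250 bases before and 50 bases after the annotated transcript start was available for 54 member genes (RefSeq, GRCm38.p6). The 50 transcribed bases held the letters GGAC in 9 of 59 windows of members (15.3%) and in 6194 of 32851 windows of all genes (18.9%), and the reverse complement GTCC was in 27.1% of the windows of members and 17.4% of all windows. A member peak lay over 7 of the 59 windows, and 2 of these 7 held GGAC. They are shown because the motif lies inside a peak that both lists hold, *Mmp14* with the motif 18 bases and *Mmp15* with the motif 3 bases into the transcript. Each is printed 5′ to 3′ on the transcribed plus strand with GGAC in capitals.
Mmp14, chr14:54431605-54431628: gagaagggagGGACcaaaggagag
Mmp15, chr8:95352296-95352311: ggGGACgccgggcgct
Over its start, *Mmp14* had a peak of 9.10-fold enrichment in sham and 24.3-fold in CCI, and *Mmp15* one of 5.08-fold in sham and 3.93-fold in CCI. The CCI value was thus 2.67 times the sham value for *Mmp14* and 0.774 times for *Mmp15*, the latter within 2-fold. No conclusion is drawn from these 2 values, which rest on 1 IP and 1 input library a group. A match of letters is a description of the window and does not locate a methylated base.

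*Mmp24* had 4 peaks in sham and 5 in CCI, against a median of 3 peaks per member gene in each list and 2 per gene over all genes. One peak of each list overlaps another near the transcript end, so these rows cover 3 places of the gene in sham and 4 in CCI. Mean peak numbers per member gene were 2.83 in CCI and 2.69 in sham, close to the 2.70 and 2.67 of all genes. Genes with 5 or more peaks made up 9 of 41 members in CCI (22.0%, all genes 14.7%) and 6 of 45 in sham (13.3%, all genes 13.9%). *Mmp17*, a membrane-type MMP held by a lipid anchor, had the most peaks of the family, 7 in CCI and 9 in sham. The number of peaks was equal in both lists for 19 member genes, higher in CCI for 13 and higher in sham for 15. A peak in sham alone was found for 6 genes (*Mmp25*, *Adam9*, *Adam12*, *Adam1a*, *Adamts8* and *Adamtsl2*) and a peak in CCI alone for 2 (*Adamts2* and *Adamts20*). Both lists named 39 member genes, of 45 in sham and 41 in CCI. Of all genes, both lists named 11761, of 12907 in sham and 12408 in CCI. The *Adam1a* peak overlaps a CCI peak that is named *Tmem116*.

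**Figure D1:**
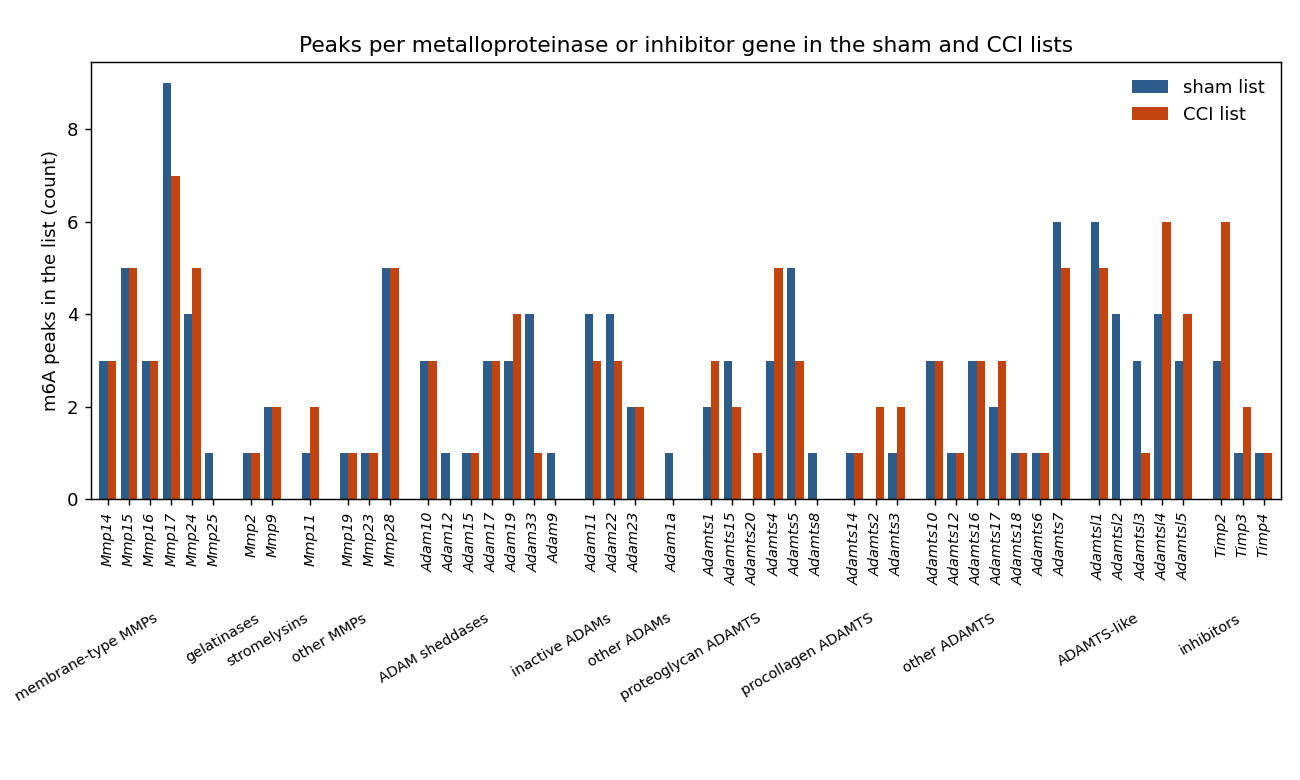
Number of m6A peaks (y axis, count) of each of the 47 member genes (x axis, grouped by role) in the sham list (blue bars) and the CCI list (orange bars), 1 list per group. *Mmp17* stands highest with 9 and 7 peaks, and *Mmp24* had 4 and 5, of which a pair overlaps in each list.

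The 3′-UTR held more than any other region of the members. Its share was 68 of 116 peaks in CCI (58.6%, 95% Wilson interval 49.5 to 67.2%, counting error only) and 71 of 121 in sham (58.7%, 49.8 to 67.1%), against 49.8% and 48.9% of all peaks. The CCI interval holds the value of all peaks, and the sham interval lies just above it. When each gene and region was counted a single time, the member shares were 47.8% in CCI and 47.2% in sham, and those of all genes 47.5% and 46.6%. Peaks in exons made up 31.0% of member peaks in CCI and 29.8% in sham, and peaks in the 5′-UTR 10.3% and 11.6%. The member peaks of the 3′-UTR less often reached the last 500 bp of the transcript, 26.5% in CCI and 23.9% in sham against 35.2% and 36.5% of all such peaks. The intervals of the member shares, 17.4 to 38.0% in CCI and 15.5 to 35.0% in sham, hold the CCI value of all genes and end just under the sham value. *Mmp24* belonged to this smaller set, with peaks that ended 60 and 98 bp before the transcript end in sham.

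Member peaks were of moderate enrichment. The median fold enrichment was 5.01 in CCI (middle 50% 2.93 to 10.8) and 5.08 in sham (3.25 to 11.4), against 5.72 and 5.70 of all peaks. By region, the 3′-UTR peaks of members had medians of 5.54 and 5.49, exon peaks 4.08 and 4.13, and 5′-UTR peaks 5.97 and 5.59. The 5′-UTR peaks of all genes were higher, with medians of 8.51 in CCI and 8.21 in sham. The highest values in the family were 135 for *Mmp14* in CCI and 115 for *Adam23* in sham.

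A partner is a peak of the other list that shares at least 1 bp of exonic sequence. In CCI 99 of 116 member peaks (85.3%, 77.8 to 90.6%) had one, against 87.7% of all CCI peaks, and in sham 95 of 121 (78.5%, 70.4 to 84.9%), against 83.9% of all. The 17 CCI peaks without a partner were weak and short, with a median fold enrichment of 3.86, a median log10 false discovery rate (FDR) of -2.44 and 91 bp. The 26 sham peaks without one had medians of 3.57, -2.76 and 106 bp. All peaks without a partner had medians of 3.17, -3.47 and 120 bp in CCI and 4.13, -3.27 and 120 bp in sham. Exon peaks were 12 of the 17 and 14 of the 26. The exon share among all peaks without a partner was not taken, so these counts are not read as a trait of the family. The highest in CCI alone was an exon peak named *Timp2* at chr11:118332689-118332838 with a fold enrichment of 11.5, and a second at chr11:118332682-118332860 overlapped it with 10.9. Both carry an annotation to exon 3 of the gene *Cep295nl*, whose RefSeq span overlaps that place. The next was a 3′-UTR peak of *Adamts17* with 10.4. In sham alone the highest were a 3′-UTR peak of *Adam33* (20.9), the single *Mmp25* peak in exon 10 (19.8) and an exon 21 peak of *Adamtsl3* (17.4). The log10 FDR of these last 3 lay between -4.21 and -3.30, weaker than the sham median of members at -9.88.

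For 92 pairs of member peaks, each the best partner of the other by shared bases, the log2 ratio of fold enrichment in CCI over sham had a median of 0.01 (middle 50% -0.42 to 0.40, range -3.78 to 2.94). Over all 27380 pairs the median was 0.03. CCI was lower in 44 of 92 member pairs (47.8%, 37.9 to 57.9%), the same share as in all pairs (47.8%). A difference of at least 2-fold was found in 10 member pairs (10.9%, 6.01 to 18.9%), against 15.8% of all pairs. CCI was lower in 6 of the 10, 6.52% of member pairs against 7.25% of all pairs, and higher in 4, 4.35% against 8.59%. The counts over the family were thus close to those over all peaks or below them. The lists were made against different inputs and with different peak borders, and only 16 of the 92 pairs had the same borders in both. In 10 of the 92 (10.9%, all pairs 14.9%) a row also overlapped a further row of the other list. In bulk tissue, fewer cells of a type and less RNA per cell cannot be told apart, and the same holds for methylation per transcript and the mix of cells that make it.

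**Figure D2:**
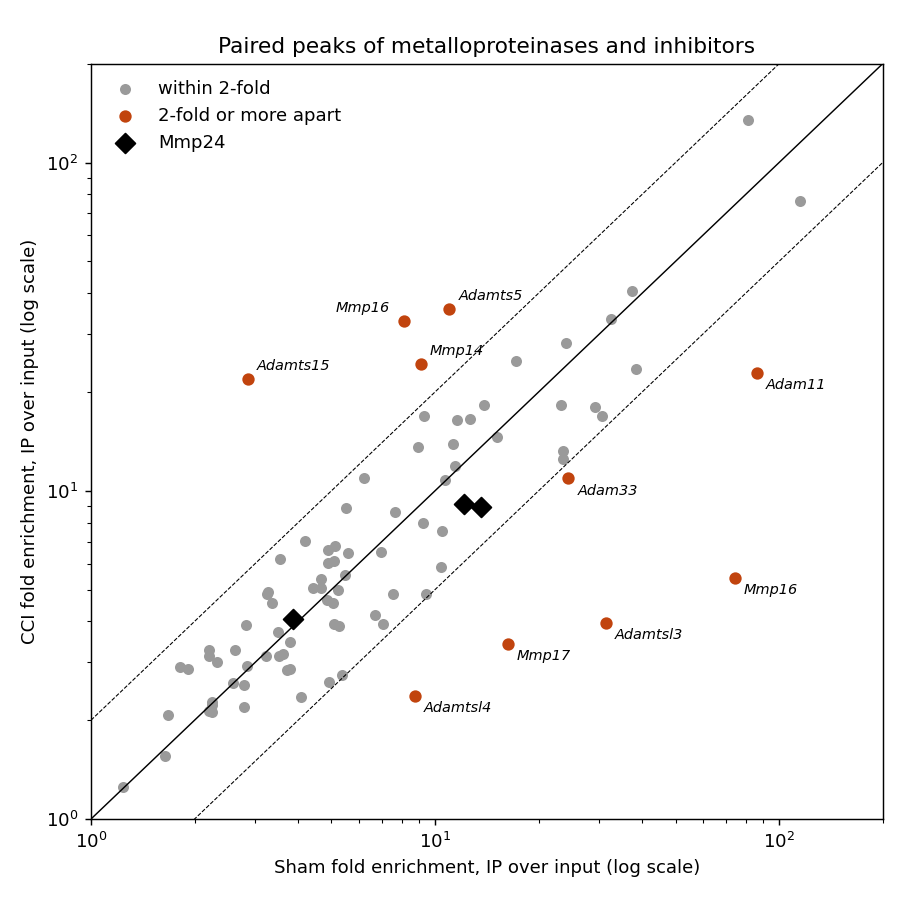
Fold enrichment of the 92 paired member peaks in sham (x axis) and CCI (y axis), both IP over input on log scales. The solid line marks equal values and the dashed lines 2-fold differences; 10 pairs (orange, named) lie outside them and the 3 *Mmp24* pairs (black diamonds) lie inside.

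The direction also varied within genes. Of 24 member genes with at least 2 pairs, 16 had pairs in both directions (66.7%), and the share was 66.7% of 6860 genes in all. The range of log2 ratios within a gene had a median of 0.95 in members and 0.98 over all genes. *Mmp16* had the widest in the family at 5.79, and *Adam10* the narrowest at 0.14. In the other 8 of the 24 genes all pairs went in 1 direction.

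Among the membrane-type MMPs the pairs of *Mmp24* lay towards the low side. The sham peak at chr2:155817730-155818268 in the last part of the 3′-UTR was enriched 13.6-fold, and its CCI partner at chr2:155817730-155818238 had 8.95, a log2 ratio of -0.60. The spliced sham peak at chr2:155814134-155816070 had 12.1, and its CCI partner at chr2:155815712-155816040 had 9.10, a log2 ratio of -0.41. The peak between them, with the same borders in both lists, had 3.86 and 4.07, a log2 ratio of 0.08. The sham row at chr2:155817740-155818306 (12.4) overlaps the first peak almost whole, and its counterpart among the CCI rows at chr2:155817770-155818277 had 8.56, a log2 ratio of -0.53. The remaining CCI peak, in an exon at chr2:155798098-155798158, had 2.06 and no sham row over it. The high peaks were thus lower in CCI by less than 2-fold, and the values of the low peak were close.

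**Figure D3:**
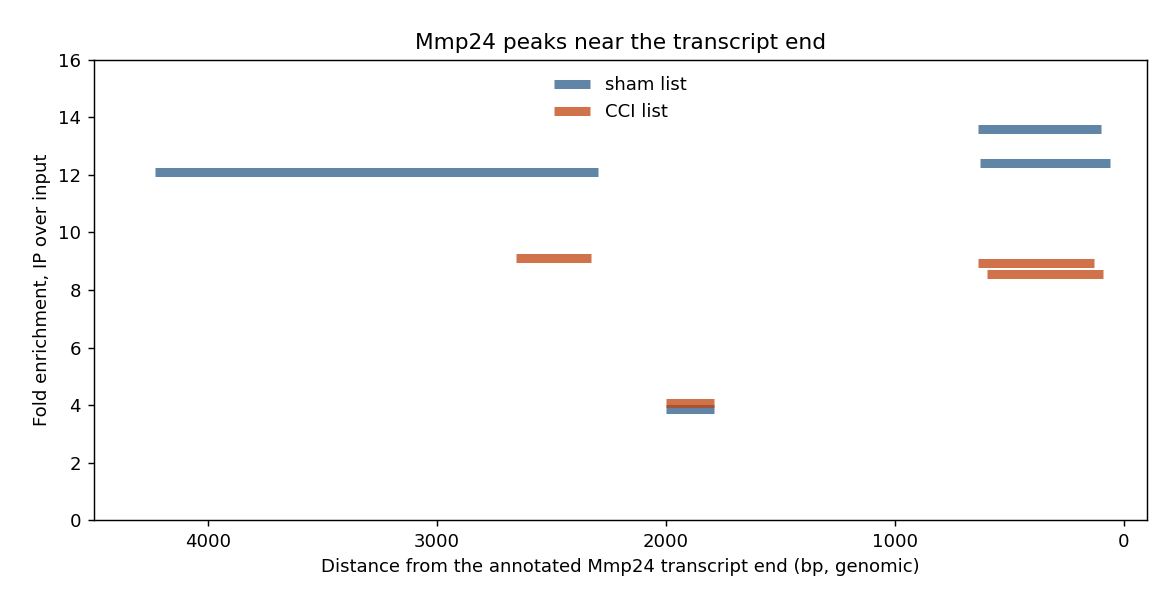
Fold enrichment (y axis, IP over input) of the *Mmp24* peaks near the annotated transcript end against genomic distance from that end (x axis, bp). Each bar is 1 peak over its whole span in sham (blue) or CCI (orange); the long sham bar spans an intron. Near the end the sham peaks stand at 13.6 and 12.4 and the CCI peaks at 8.95 and 8.56.

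The log2 ratio of the *Mmp24* transcript end was not among the lowest of the family. Of the 92 member pairs 19 were lower (20.7%), and of all pairs 15.8% were lower. Within the 21 membrane-type pairs it was the fourth from the lowest. Lower in that set were the 5′-UTR pair of *Mmp16* and an exon and a 3′-UTR pair of *Mmp17*. The weaker peaks of these pairs had a log10 FDR of -4.26, -4.8 and -6.39. In the order of all member pairs, the closest neighbours of the *Mmp24* pair were the 5′-UTR pair of *Adam23* (-0.60), a pair of *Adamts17* (-0.64) and a pair of *Mmp28* (-0.68). By the median over the pairs of each gene, *Mmp24* stood at -0.41, and 7 of 38 member genes were lower. What set the *Mmp24* pair apart from those neighbours was its peak score, with a log10 FDR of -255 in CCI and minus infinity in sham, against -63.2, -4.29 and -2.65 for the weaker peak of each neighbour.

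The row of this pair can belong to more than 1 gene. It starts at 155817730, the same base as the RefSeq gene *BC029722* (chr2:155817730-155819232), while RefSeq places *Mmp24* at chr2:155775342-155818367. Within each chromosome the tables list rows of plus-strand gene models before rows of minus-strand models, and this row stands in the minus-strand run although *Mmp24* lies on the plus strand. Its neighbour at 155817740 stands in the plus-strand run. In all, 6 of 116 member rows in CCI and 6 of 121 in sham stood in the run of the other strand (5.17% and 4.96%), against 6.34% and 6.49% of all rows. The others were 3 rows named *Adamts7* inside *Tbc1d2b*, the 5′-UTR row named *Mmp11* inside *Chchd10*, and 1 row of *Mmp28* inside *1700020L24Rik*. In the span of another RefSeq gene lay 23 of the 116 CCI peaks and 20 of the 121 sham peaks of members. The rows named *Adamts7* and *Mmp11* lay outside the RefSeq span of the gene they are named after. The library protocol in the labels marks strand with dUTP, but whether peaks were called by strand is not stated. The strand of a row is read here from its order and is not given in the tables, so which gene these reads came from cannot be told apart.

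Of the 18 pairs of the other membrane-type MMPs, 6 were lower in CCI (33.3%, 16.3 to 56.3%) with a median log2 ratio of 0.29, and the interval holds the 47.8% of all pairs. *Mmp15* and *Mmp17* gave 12 of the 18. Together with *Mmp24* 8 of 21 were lower with a median of 0.18. *Mmp14*, which activates MMP2 at the cell surface, had 3 peaks in each list, with its 3′-UTR peak at 81.3 in sham and 135 in CCI (log2 ratio 0.73). Its start peak at chr14:54431612-54431881 stood at 9.10 in sham and 24.3 in CCI with the same borders (1.42), while its exon peak had 23.2 and 18.2 (-0.35). *Mmp15* had 5 peaks in each list, the highest near the transcript end at 8.95 in sham and 13.6 in CCI (0.60), and its other 4 pairs lay between -0.37 and 0.43.

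*Mmp16*, a transmembrane member like *Mmp24*, had 3 peaks in each list and held the lowest pair of the family and one of the highest. Its 5′-UTR peak at chr4:17853253-17853463 had 74.4 in sham, and the CCI partner had 5.42 (-3.78). The first of its 3′-UTR peaks, at chr4:18115936-18116176, had 8.13 in sham and 32.8 in CCI (2.01), and the next had 4.90 and 6.60 (0.43). *Mmp17* had an exon 9 peak at 16.3 in sham and 3.41 in CCI (-2.26), and of its other 6 pairs 5 were higher in CCI. The single *Mmp25* peak was in sham only.

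**Figure D4:**
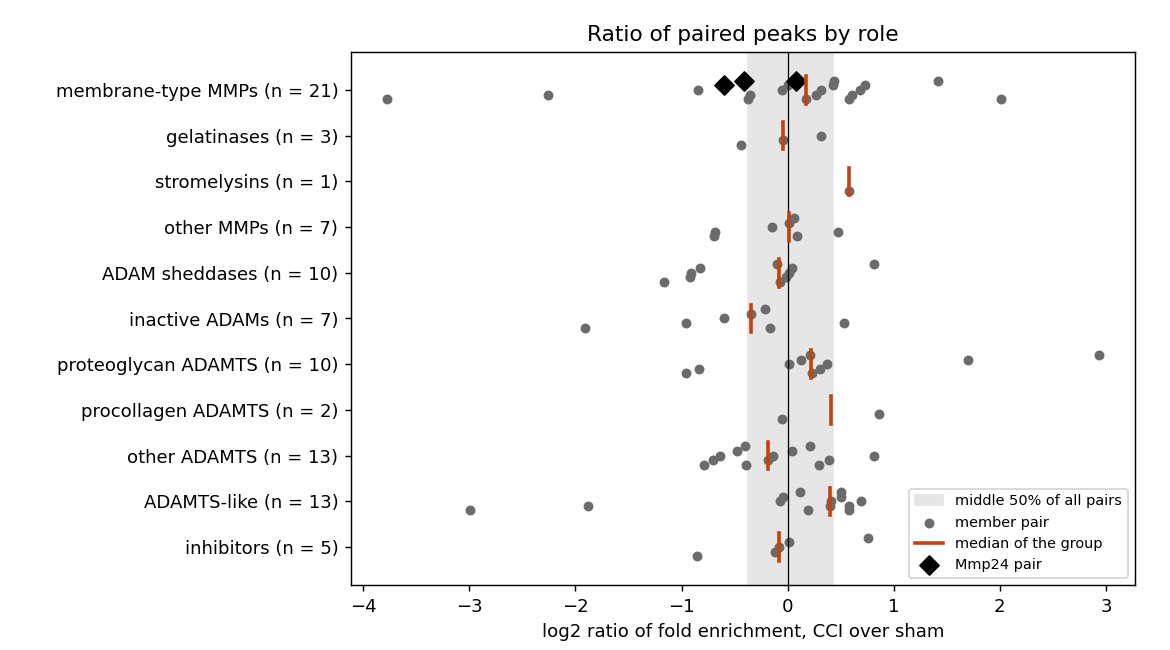
Log2 ratio of fold enrichment in CCI over sham (x axis) of each of the 92 member pairs, 1 row per role with its number of pairs. Points are pairs, black diamonds the *Mmp24* pairs, orange lines the median of a role and the grey band the middle 50% of all pairs (-0.37 to 0.43).

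The MMPs outside the membrane-type group that had a row had between 1 and 5 peaks in a list. The gelatinases *Mmp2* and *Mmp9*, which cut denatured collagen, had 1 and 2 peaks in each list. The *Mmp2* pair had 3.23 in sham and 3.13 in CCI (-0.05), and the pairs of *Mmp9* had 5.26 and 3.87 in an exon (-0.44) and 2.63 and 3.28 in the 3′-UTR (0.32). All 3 gelatinase pairs were within 2-fold. The 4 collagenase genes (*Mmp1a*, *Mmp1b*, *Mmp8*, *Mmp13*) and the stromelysins *Mmp3* and *Mmp10* had no row in the tables used here. *Mmp11* had 1 peak in sham and 2 in CCI, with its pair at 2.20 and 3.28 (0.58) on the row inside *Chchd10*. *Mmp19* had 1 peak in each list, 29.1 in sham and 18.0 in CCI (-0.69), and *Mmp23* 1 peak with 3.49 and 3.72 (0.09). *Mmp28*, or epilysin, had 5 peaks in each list, the highest pair at 11.4 and 11.9 (0.06).

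Among the shedding ADAMs, 7 of 10 pairs were lower in CCI (70.0%, 39.7 to 89.2%), with a median log2 ratio of -0.08, and the interval holds the share of all pairs. *Adam10*, the main alpha-secretase of neurons, had 3 peaks in each list that hardly differed, and its 5′-UTR peak had 6.97 in sham and 6.52 in CCI (-0.10). *Adam17*, the enzyme that releases tumour necrosis factor, had 3 peaks in each list. Its stronger 3′-UTR pairs had 10.4 in sham and 5.87 in CCI (-0.83) and 4.91 and 2.61 (-0.91), and the third had 2.25 and 2.27 (0.01). *Adam15* had 1 peak in each list, 23.6 and 12.5 (-0.92). *Adam33* had 4 peaks in sham and 1 in CCI, and its pair had 24.4 and 10.9 (-1.16). *Adam19* had 3 peaks in sham and 4 in CCI, with its highest pair at 3.54 and 6.21 (0.81). *Adam9* and *Adam12* had 1 sham peak each, of 1.86 and 3.36. The lower values in CCI thus lay with *Adam15*, *Adam17* and *Adam33*, and *Adam10* was level.

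*Adam11*, *Adam22* and *Adam23* encode neuronal ADAMs that lack protease activity, and ADAM22 and ADAM23 bind the secreted LGI proteins at synapses. CCI was lower in 6 of their 7 pairs (85.7%, 48.7 to 97.4%), with a median log2 ratio of -0.34. The interval starts just above the 47.8% of all pairs, but it covers counting error only. These pairs come from 3 genes and are not replicates, and the other roles were looked at in the same way, so no conclusion is drawn from it. The *Adam11* peak at chr11:102779932-102780262 in the 3′-UTR had 86.0 in sham and 22.9 in CCI over the same borders (-1.91), and it was the one pair past 2-fold towards lower values whose peaks both had a log10 FDR below -5 (-89.4 and -49.4). The longer 3′-UTR peak upstream of it had 9.21 and 7.97 (-0.21), and the exon pair 2.78 and 2.19 (-0.34). *Adam11* had 4 peaks in sham and 3 in CCI, and the sham peak without a pair had 1.65. *Adam22*, with 4 peaks in sham and 3 in CCI, had 5.35 and 2.75 (-0.96) in its highest pair, and a further CCI peak of 3.91 under the same sham peak gave -0.45. *Adam23* had 2 peaks in each list, of which the 5′-UTR pair had 115 and 76.1 (-0.60) and the 3′-UTR pair 17.2 and 24.8 (0.53).

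The ADAMTS enzymes that cut proteoglycans, the main substance of the perineuronal net, were higher in CCI in 8 of 10 pairs from 4 genes (80.0%, 49.0 to 94.3%), with a median log2 ratio of 0.22. The interval holds the 51.8% of all pairs that were higher. *Adamts4*, an aggrecanase, had 3 peaks in sham and 5 in CCI, and its 5′-UTR pair had 37.3 and 40.7 over the same borders (0.13). *Adamts5*, also an aggrecanase, had 5 peaks in sham and 3 in CCI. Its peak at chr16:85861855-85862575 had 11.0 in sham, and the CCI partner, which spans 85861885 to 85866676, had 35.7 (1.70). The same CCI peak also covers a stronger sham peak of 14.7 (log10 FDR -99.1), against which its log2 ratio is 1.28. Another pair had 9.43 and 4.85 (-0.96). *Adamts15* had 3 and 2 peaks, with 2.86 and 21.9 (2.94) in a short 3′-UTR peak at chr9:30901221-30901281 of weak score (log10 FDR -2.46 in sham) and 24.0 and 28.1 (0.23) in its stronger one. *Adamts1* had 2 peaks in sham and 3 in CCI, and its highest pair had 23.5 and 13.2 (-0.83). *Adamts8* had 1 sham peak of 6.97 and *Adamts20* 1 CCI peak of 1.86. Both pairs past 2-fold were higher in CCI, and in each the borders differed between the lists.

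The procollagen-processing *Adamts14* had 1 peak in each list, with 15.1 in sham and 14.6 in CCI (-0.05). *Adamts3* had 1 peak in sham and 2 in CCI, with its pair at 9.30 and 16.9 (0.86). The other CCI peak lies under the same sham peak and had 7.56 (-0.30), so the direction depended on which of them is set against it. *Adamts2* had 2 peaks in CCI only, of 8.86 and 4.20. Of the other ADAMTS genes, 8 of 13 pairs were lower in CCI (61.5%, 35.5 to 82.3%, median -0.18) and none passed 2-fold. *Adamts10*, linked to fibrillin microfibrils, had 3 peaks in each list and 32.5 and 33.4 (0.04) in its pair, with a weaker CCI peak of 2.43 also under that sham peak. *Adamts16* had 3 peaks in each list, all lower in CCI, the highest at 3.80 and 3.46 (-0.14). *Adamts17* had 2 in sham and 3 in CCI, with 10.5 and 7.56 (-0.47). *Adamts18* had 1 peak in each list at 13.9 and 18.2 (0.39), and *Adamts6* 1 at 5.58 and 6.46 (0.21). *Adamts7*, whose product cuts cartilage oligomeric matrix protein, had 6 peaks in sham and 5 in CCI, with 38.3 and 23.5 (-0.70) in its highest pair. In each list 3 of these peaks lie inside *Tbc1d2b* and outside the RefSeq span of *Adamts7*, and their pairs are among the 13. *Adamts12* had 1 peak in each list, 12.8 in sham and 7.04 in CCI, at places that did not overlap.

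ADAMTS-like genes encode secreted matrix proteins without a protease domain. CCI was higher in 9 of their 13 pairs (69.2%, 42.4 to 87.3%), with a median log2 ratio of 0.40. The interval holds the 51.8% of all pairs that were higher, and most of the higher pairs came from *Adamtsl1* and *Adamtsl5*. *Adamtsl1*, with 6 peaks in sham and 5 in CCI, was higher in CCI in all 5 pairs by 0.40 to 0.58, the highest at 12.6 and 16.6. *Adamtsl5* had 3 and 4 peaks and was higher in all 3 pairs, the highest at 5.50 and 8.86 (0.69). The sham peak of that pair also covers CCI peaks of 5.04 (-0.13) and 5.55 (0.01), so the direction depended on which is set against it. It also overlaps the sham peak of another *Adamtsl5* pair, so those pairs share a place. *Adamtsl3*, with 3 sham peaks and 1 CCI peak, had 31.4 and 3.95 (-2.99), and *Adamtsl4*, with 4 and 6 peaks, had 8.72 and 2.37 (-1.88) in its highest pair, whose sham peak also covers a CCI peak of 1.92. *Adamtsl2* had 4 peaks in sham only, of at most 4.65. The last of the rule, *Adam1a*, had a single sham peak of 3.55, whose CCI partner of 2.22 is named *Tmem116*.

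The inhibitors had 5 pairs, of which 3 were lower in CCI, with a median log2 ratio of -0.09. *Timp2*, whose product also takes part in the activation of MMP2 by MMP14, had 3 peaks in sham and 6 in CCI. The difference in number rests on CCI rows shared with *Cep295nl*. A CCI peak of 1.31 has a sham partner of 1.4 that is named *Cep295nl* (-0.1), and the CCI peaks annotated to *Cep295nl* overlap each other. The start peak of *Timp2* in the 5′-UTR had 30.6 in sham and 16.9 in CCI (-0.86), and its 3′-UTR pairs had 2.78 and 2.56 (-0.12) and 1.24 and 1.25 (0.01). *Timp3*, which binds the matrix and also inhibits ADAM17, had 1 peak in sham and 2 in CCI, with its pair at 2.25 and 2.12 (-0.09). *Timp4* had 1 start peak in each list with the same borders, at 4.18 and 7.05 (0.75). The *Timp3* peaks also lie inside the RefSeq span of *Syn3* and the *Timp4* peaks inside that of *Syn2*. *Timp1* had no row in the tables used here. No inhibitor pair reached 2-fold. The start pairs of *Mmp14* (1.42) and *Timp2* (-0.86), whose products act together at the cell surface, went in opposite directions. Single pairs picked by name cannot show a link between these genes, and none was tested.

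The values above give for each of the 38 genes with a pair the one with the highest sham fold enrichment, and 22 of them were lower in CCI. These were picked by their sham value, so that count is a description only. Of the 10 pairs past 2-fold, 4 had a log10 FDR below -5 in both lists (*Adam11*, *Adamts5*, *Mmp14* and *Mmp16* in its 3′-UTR), and 3 of these were higher in CCI. By the score of the weaker peak, the share past 2-fold was 6 of 29 pairs above -5 (all pairs 25.3%), 3 of 42 from -50 to -5 (16.1%) and 1 of 21 at or below -50 (8.69%). The share was highest among the weakest pairs both in members and in all genes.

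The table of differential peaks named 9 of the 47 member genes (19.1%, 10.4 to 32.5%), against 25.3% of all genes with a peak. *Mmp24* had 3 of the 11 member rows, and *Adam17*, *Adam19*, *Adam23*, *Adamts2*, *Mmp11*, *Mmp16*, *Mmp17* and *Timp2* had 1 each. Of the 3 *Mmp24* rows, those starting at 155817730 and 155817740 overlap each other, so they cover 2 places of the gene. The *Mmp11* row and the *Mmp24* row at 155817730 stood in the run of the other strand. By peak, 9.48% of the CCI peaks and 7.44% of the sham peaks of members overlapped such a row, against 15.6% and 14.3% of all peaks. Several of the widest pairs had no row there, among them the 3′-UTR pair of *Adam11* and the start pair of *Mmp14*.

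Of 43 genes that act on or with the members, 37 had a peak and 16 of these had a row in the differential table (43.2%, 28.7 to 59.1%), against 25.3% of all genes with a peak. The interval lies above the share of all genes, but it covers counting error only. A gene with more peaks has more places where a row can fall, and no share by peak was taken for these genes. The list was also chosen with earlier results of these data known, so no conclusion is drawn. The 37 genes had 106 pairs, with CCI lower in 52 (49.1%) and a median log2 ratio of 0.00. Of these pairs 9 were past 2-fold (8.49%, against 15.8% of all pairs), 5 lower and 4 higher. Among the regulators of ADAM10 and ADAM17, *Rhbdf1* (iRhom1, which brings ADAM17 to the surface) had 22.1 in sham and 5.44 in CCI in the 3′-UTR (-2.02) and 4.65 and 2.22 in the 5′-UTR (-1.07). *Tspan17* and *Tspan33*, tetraspanins that guide ADAM10, had 24.4 and 51.3 (1.07) and 8.08 and 17.2 (1.09). Among these regulators the pairs past 2-fold were thus lower in CCI for *Rhbdf1* and higher in CCI for *Tspan17* and *Tspan33*. The other tetraspanins of the list were within 2-fold, *Tspan5* with -0.54, -0.32 and 0.24, *Tspan15* with -0.32 and *Tspan14* with 0.02. Of the 12 pairs of the regulators 6 were lower in CCI (all pairs 47.8%), with a median log2 ratio of -0.15. Of the matrix substrates, the versican gene *Vcan* had 4.26 and 26.6 (2.64) in an exon and the link protein gene *Hapln2* 62.8 and 27.1 (-1.21). *Notch1*, a membrane substrate of ADAM10, had 5.07 and 2.20 (-1.20), *Lgi2*, a ligand of the ADAM22 family, 25.6 and 12.0 (-1.09), and *Grip2*, of the scaffold proteins that bind MMP24, 6.39 and 15.1 (1.24). The convertases that activate membrane-type MMPs (4 pairs), the group of *Reck*, *Bsg* and *Sparc* (8 pairs) and the receptor *Lrp1* (2 pairs) had none past 2-fold.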

How the data were processed

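MeRIP-seq was run on spinal cord of sham and CCI mice, with 1 IP and 1 input library a group. The paper names Cutadapt, bowtie, MACS2 and ChIPseeker, the submitters' processing notes list fastp, HISAT2, HOMER, ChIPseeker and GRCm38, and the columns are named as in exomePeak; which of these made the tables was not settled. The deposited fold enrichment of a peak is the authors' ratio of its IP signal to its input signal. The authors' log10 FDR of a peak, from their comparison of both libraries, was handled as a score because some values are minus infinity. The differential table also holds the authors' log2 fold change, log10 p-value and log10 FDR of CCI against sham, none of which was used, and only its gene names and positions were read. No read counts are given, so the depth is unknown and no error was put on a fold enrichment.

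Members were matched by gene name, and regions are those of the authors' annotation. Peaks were compared by exonic blocks with at least 1 shared bp and paired when each was the best partner of the other by shared bases. Shares carry 95% Wilson intervals, which cover counting error only. Names, gene spans and start windows came from RefSeq tables of GRCm38.p6, in which all 47 member names were found; 112 of 116 CCI and 117 of 121 sham peaks lay inside the span of the gene they name. Every member with a peak is named with its peak numbers, and each gene's pair with the highest sham value, all *Mmp24* peaks, each pair past 2-fold and the 3 highest peaks of a single list are given. Further pairs and the peaks of genes without a pair were added after their values were seen. The members, roles and lists were chosen with earlier results of these data known. 1 list of marker genes is not reported here. The pairing was run on simulated data of 3000 peaks per list, where all 2700 true pairs were recovered. Each simulated peak had a single block and could overlap only its own partner. That run therefore checks the code and says nothing of spliced peaks or of rows that overlap several rows of the other list. Alternatives covered the overlap, the fold and FDR of peaks, centring, counting by gene and the pairing within strand runs. Scripts ran under Python 3.11.15 with pandas 2.3.3, numpy 2.4.6, matplotlib 3.10.9 and scipy 1.17.1.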

Additional observations from a re-analysis of the deposited data

How the results depend on the processing

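Of 43 recomputed values, 34 kept their value within the interval, 0.1 on the log2 scale or 1.5 times in a count, and 9 moved. Where partners had to share at least 50% of each peak, the share with a partner was 74.1% in CCI and 70.2% in sham. Counting each gene and region a single time lowered the 3′-UTR share to 47.8% in CCI and 47.2% in sham. A limit of 1.5-fold in place of 2-fold gave 33 pairs (35.9%, all pairs 35.2%), the *Mmp24* transcript end pair among them, and 4 pairs past 2-fold were left among those whose weaker peak had a log10 FDR below -5. The median over all *Mmp24* pairs was -0.41 in place of -0.60. The share with a differential row was 9.48% by CCI peak and 7.44% by sham peak. The median log2 ratio stayed between -0.04 and 0.01, and the share of pairs lower in CCI between 47.6% and 53.3%. With centring on all pairs, on the other members, or pairing within strand runs the *Mmp24* transcript end had -0.63, -0.62 and -0.53. The strand runs, the removal of rows in the other run and the limit on the weaker peak, 7 values in all, were chosen after seeing the data. No member name is non-coding, so leaving such names out changed nothing. No paired analysis was possible because there was only 1 IP library and 1 input library a group, and for the same reason no library could be left out.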
